A study of Medicago sativa with 24 samples.

Results

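The comparison described here is that between S48-4x and S60-4x, a pair of tetraploid full sibs of alfalfa (Medicago sativa), in which each gene difference was set against the difference between the parents, PG-F9 and 12P. It used the 3 arrays of S48-4x and the 3 arrays of S60-4x, 6 of the 24 arrays of the experiment, together with the 6 arrays of the parents. PG-F9, the seed parent, is a diploid plant of the subspecies falcata that forms unreduced eggs, and 12P, the pollen parent, is a diploid plant that descends from a cross of the subspecies coerulea and falcata and forms unreduced pollen. S48-4x, S60-4x and another tetraploid, S29-4x, came from seeds in which an unreduced egg met unreduced pollen. Every genotype was 1 plant multiplied by cuttings and grown in a screen house, and each replicate was a bulk of young, fully expanded leaves of 2 cuttings taken at the vegetative stage, without a treatment. The replicates therefore measure the spread between cuttings of 1 plant, and a difference between S48-4x and S60-4x is a difference between single plants.

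An unreduced gamete carries the chromosome number of the plant that made it, so that a tetraploid born from unreduced gametes on both sides holds chromosome sets of both parents in equal numbers. Parents of outcrossing alfalfa are heterozygous, and meiosis in the mother and father shuffles their alleles before the gametes are formed. Full sibs of one cross can thus carry different alleles of the same gene, and for a gene that is active in one parent and silent in the other, they can carry different doses of the active allele.

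Transcript levels were read as log2 intensities of NimbleGen arrays with 1 colour, whose probes were designed on Medicago truncatula, a close relative. A difference in how well an allele matches a probe and a difference in RNA level cannot be told apart in these values. Of the 41527 genes measured, between 70.2% and 74.9% in S48-4x and between 74.7% and 78.2% in S60-4x lay above the highest negative control of their array. In the parents this share was 66% to 69.4% in PG-F9 and 73.5% to 75.6% in 12P. S48-4x and PG-F9 thus had the lower range of shares in their pairs. What this adds to genes that were lower in both of them was not tested. The arrays of S48-4x were less alike than those of S60-4x, with a median SD per gene of 0.208 in S48-4x and 0.144 in S60-4x on the log2 scale. Replicate 2 of S48-4x had the lowest mean correlation with its own replicates (0.985, against 0.9942 to 0.9946 for the arrays of S60-4x), and counts are also given without it. On the leaf side, 11 of 12 photosynthesis genes were above background on every array of both sibs, and the median of the list was between 12.58 and 13.18 in S48-4x and between 12.59 and 13.12 in S60-4x. Of 10 genes annotated as nodule-related, 9 were above background in both sibs, and their median lay between 9.64 and 9.96 in S48-4x and between 9.19 and 9.56 in S60-4x. The part of tissue make-up in the results was not tested.

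S48-4x and S60-4x differed in 1344 genes, or 3.24% of those tested (limma, with the Benjamini-Hochberg adjusted p below 0.05 and more than 1 between the means on the log2 scale, which is what "called" means here). The larger part was lower in S48-4x. In S48-4x, 452 genes were higher (1.09%) and 892 were lower (2.15%) than in S60-4x. In all 1344 genes the 3 arrays of S48-4x lay wholly above or wholly below the 3 of S60-4x, a separation that 26.1% of all genes showed. The differences ran from -6.11 to 6.59. Differences over 2 were found in 106 genes higher in S48-4x and 180 higher in S60-4x, and differences over 3 in 28 and 27 genes in the same order. Without replicate 2 of S48-4x, 605 genes were higher in S48-4x and 965 in S60-4x. The number of calls fell to 894 without replicate 1 of S60-4x and to 892 without its replicate 3, whereas the share of calls that were higher in S48-4x stayed between 30.4% and 38.5% when any of the 6 arrays was left out.

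The parents differed in more genes than these tetraploid progeny. Between PG-F9 and 12P, 4597 genes (11.1%) were called, 2197 with more signal in PG-F9 (5.29%) and 2400 with more in 12P (5.78%). Of the 1344 genes that set S48-4x apart from S60-4x, 793 were also called between the parents, which is 59.0% of the sib list and 17.3% of the parental list (1.91% of all genes). Larger parental differences went with larger shares of genes called between the sibs. Among genes whose parents differed by less than 0.5, 0.857% were called between S48-4x and S60-4x. This share was 3.08% at parental differences of 0.5 to 1, 14.7% at 1 to 2, 24.3% at 2 to 3 and 28.7% at 3 or more. The median absolute difference between the sibs was 0.155 for genes whose parents differed by less than 0.5, and 0.54 and 0.555 in the upper classes, 2 to 3 and 3 or more.

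**Figure D1:**
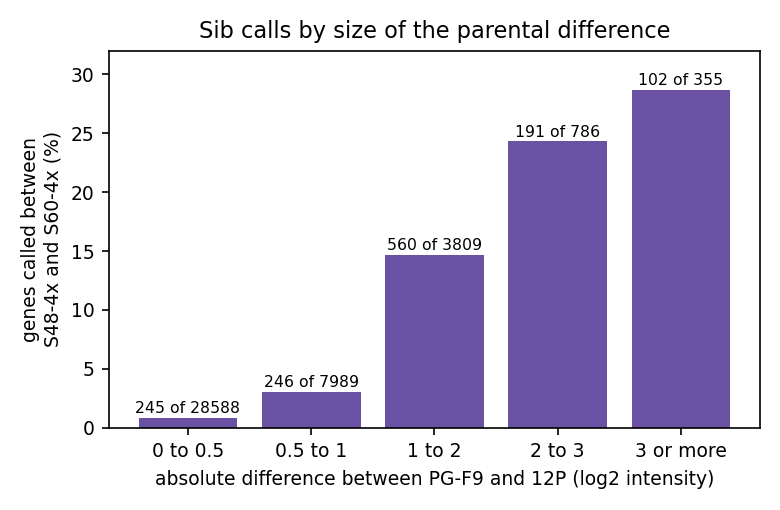
Share of genes called between S48-4x and S60-4x (vertical axis, %) by the absolute difference between PG-F9 and 12P (horizontal axis, log2 intensity), with the number called of the number of genes above each bar. The bars climb from 0.857% of the genes whose parents were alike to 28.7% of those whose parents differed by 3 or more.

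The direction of the parental difference was not balanced among these genes. Among the 793 genes called in both comparisons, 577 (72.8%) had the same sign, as had 53.1% of all genes. The same sign means that the higher sib went with PG-F9 for S48-4x or with 12P for S60-4x. Most of the 577, 492 genes, were lower in S48-4x than in S60-4x and lower in PG-F9 than in 12P. Only 85 genes were higher in both S48-4x and PG-F9. In the crosswise directions, 124 genes were higher in S48-4x and in 12P, and 92 combined a lower level in S48-4x with a higher one in PG-F9. Read from the parental side, S48-4x was higher in 5.17% and lower in 20.5% of the 2400 genes with more signal in 12P. For the 2197 genes with more signal in PG-F9 the shares were nearly equal, 3.87% higher and 4.19% lower in S48-4x. Every array left out in turn gave more genes in the 12P and S60-4x class (320 to 546) than in any other class. The 577 genes of the same sign fell to 383 without replicate 3 of S60-4x, and the 492 to 320. The class of 92 fell to 52 without replicate 1 of S60-4x, to 58 without its replicate 2 and to 58 without replicate 1 of S48-4x. Among all sib calls, the share of the same sign did not rise steadily with the parental difference. It was 55.1% at parental differences under 0.5, 63.8% at 0.5 to 1 and 77.5% at 1 to 2. At 2 to 3 it was 70.2%, and at 3 or more 56.9%. Across all genes the correlation of the sib difference with the parental difference was weak (Pearson's r = 0.13 over 41527 genes, which share arrays and are not independent).

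**Figure D2:**
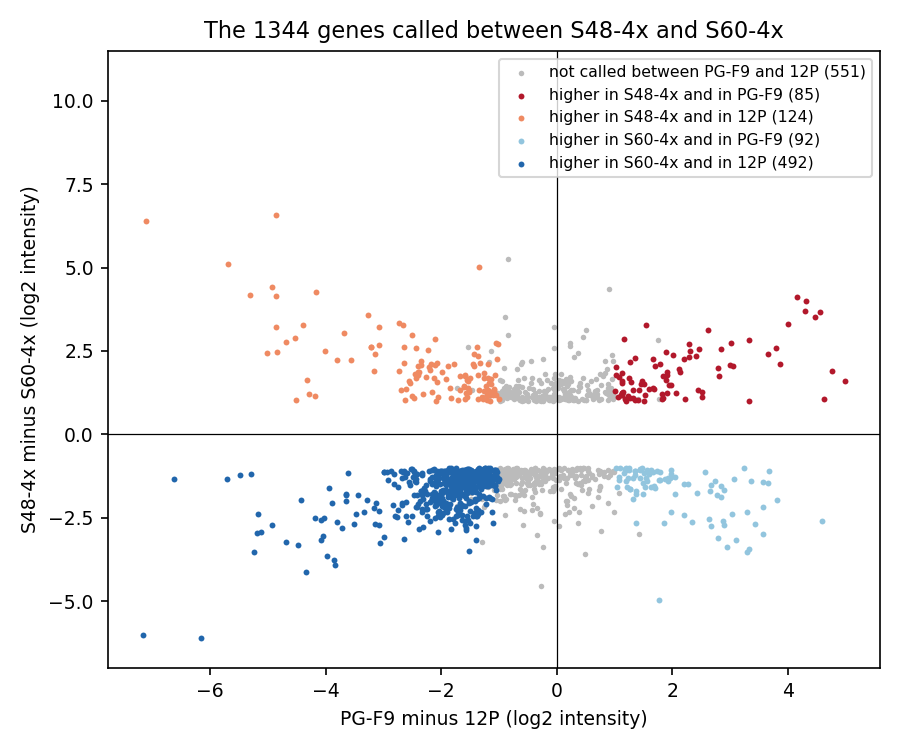
Difference S48-4x minus S60-4x (vertical axis, log2 intensity) against PG-F9 minus 12P (horizontal axis, log2 intensity) for the 1344 genes called between the sibs, 1 point per gene. The lower left field, lower in S48-4x and in PG-F9, holds 492 genes called in both comparisons, against 85, 124 and 92 in the other fields, and the grey points are the 551 genes not called between the parents.

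On a scale where 0 is the mean of 12P and 1 the mean of PG-F9, the median gene among the 4597 lay at 0.532, 0.533 and 0.591 in the arrays of S48-4x and at 0.432, 0.455 and 0.354 in those of S60-4x. S48-4x was thus the sib nearer PG-F9, at 0.552 ± 0.034 against 0.413 ± 0.0527 in S60-4x (SD, n = 3 each), a difference of 0.139 in which the arrays did not overlap (p = 0.1 in a two-sided exact permutation test, which cannot go lower with 3 against 3 arrays). The gap lay in the genes with more signal in 12P. Over those 2400 genes the positions of S48-4x were 0.569, 0.608 and 0.613, and those of S60-4x 0.36, 0.408 and 0.283 (difference 0.246, exact permutation p = 0.1). Over the 2197 genes with more signal in PG-F9 the sibs overlapped, at 0.505 ± 0.0609 in S48-4x and 0.497 ± 0.0453 in S60-4x (SD, n = 3 each, exact permutation p = 0.9). The distance between these gene classes within an array was 0.041 to 0.155 in S48-4x and -0.162 to -0.117 in S60-4x (exact permutation p = 0.1). The third tetraploid, S29-4x, lay with S60-4x for the genes higher in 12P (0.276 to 0.318).

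**Figure D3:**
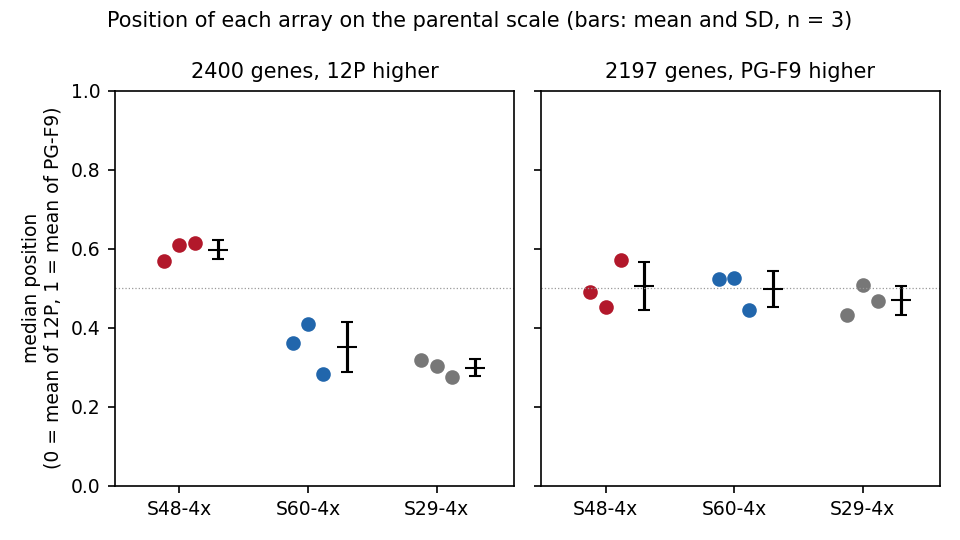
Median position of each array on the parental scale (vertical axis, 0 the mean of 12P and 1 the mean of PG-F9, no unit) for S48-4x, S60-4x and S29-4x, over genes with more signal in 12P (left) or in PG-F9 (right). Points are arrays and bars the mean and SD of 3, and the arrays of S48-4x stand above those of S60-4x on the left (0.569 or more against 0.408 or less) but among them on the right.

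The pair of named genes with the lowest differences was strong in one parent and near background in the other. TC172620, annotated as Hsp70, a chaperone that helps proteins to fold, read 6.22, 7.09 and 6.33 in S48-4x, against 12.37, 12.71 and 12.59 in S60-4x. Its parents showed the same split, with 5.79, 5.54 and 5.24 in PG-F9 and 12.56, 12.54 and 12.92 in 12P. S48-4x thus stood near the low level of PG-F9 and S60-4x at the high level of 12P, while S29-4x (11.08 ± 0.0987, SD, n = 3) had a high level too. The difference S48-4x minus S60-4x was -6.01 ± 0.24 (SE, limma adjusted p = 0.000146). NP7252928, for which no product is named, had the lowest difference of all genes, -6.11 (adjusted p = 0.000167, limma). It read 4.988, 5.997 and 5.371 in S48-4x, below the highest negative control, against 11.76, 11.46 and 11.49 in S60-4x. Taking the background as the lower limit of what can be measured, its signal was at least 35.5-fold lower in S48-4x, and in PG-F9 it was at least 31.3-fold lower than in 12P.

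NP7268164, a protein with a RING-type zinc finger, a fold common in ubiquitin ligases, followed 12P in a graded way. It had 4.72, 5.04 and 4.62 in S48-4x and 6.66, 7.21 and 7.64 in S60-4x, while PG-F9 was at 4.72 ± 0.22 and 12P at 9.88 ± 0.29 (SD, n = 3 each). S60-4x lay between the parents and S48-4x at the level of PG-F9, and the signal was at least 1.69-fold lower in S48-4x (adjusted p = 0.00377, limma). NP7256714, with the BURP domain of plant-specific proteins, had 9.58, 10.10 and 9.90 in S48-4x and 12.71, 12.91 and 12.49 in S60-4x. PG-F9 was lower than 12P for it as well, with 10.52, 8.05 and 9.08 against 11.41, 11.70 and 11.70. S60-4x was above all arrays of both parents, and so was S29-4x (12.40 to 12.70). A retrotransposon gag gene, NP7266493, coding for the shell protein of a mobile element, was below background in S48-4x (5.87, 6.07 and 5.57) and at 9.08, 9.02 and 8.93 in S60-4x, at least 6.02-fold lower in S48-4x. Its parents differed in the same direction, with 6.85, 7.53 and 6.27 in PG-F9 and 8.38, 8.13 and 8.30 in 12P. Neither sib matched a parent, as S48-4x lay below all parental arrays and S60-4x above them.

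Fewer named genes followed PG-F9 upwards in S48-4x. The clearest was TC172517, a leucine-rich repeat gene of the kind found in many receptors. It read 9.89, 9.53 and 9.67 in S48-4x, against 6.71, 6.30 and 6.71 in S60-4x, and 9.27, 9.01 and 9.42 in PG-F9, against 6.84, 6.51 and 6.47 in 12P. Each sib was thus near one parent, and S29-4x fell between the sibs (8.87, 7.79 and 8.01). NP7263997, annotated as CIPK21, a kinase that calcium sensors switch on, had 9.91, 9.53 and 9.88 in S48-4x and 7.49, 7.85 and 7.81 in S60-4x. Here too the parents differed in the same direction (10.69, 11.08 and 10.86 in PG-F9, against 7.75, 7.59 and 8.14 in 12P), and S29-4x resembled S48-4x with values from 9.95 to 10.07.

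The largest increases in S48-4x ran against the parental direction. TC177060, with no named product, read 13.98, 13.89 and 14.18 in S48-4x, against 7.29, 7.58 and 7.41 in S60-4x, and its difference of 6.59 ± 0.13 (SE) was the highest of all genes (adjusted p = 2.2e-05, limma). It was high in 12P (11.93, 12.45 and 12.30) and low and uneven in PG-F9 (8.940, 7.161 and 6.003). TC173294, also unnamed, had 12.62, 12.35 and 12.68 in S48-4x and 5.86, 6.42 and 6.19 in S60-4x, again with the high level in 12P (12.44, 12.68 and 12.65) and PG-F9 below background (5.27 to 5.61). In both genes it was S60-4x that lacked the strong signal of 12P, and S29-4x had it. Nup98 (TC189613), a protein of the nuclear pore, behaved alike at a lower level, with 7.88, 7.70 and 7.49 in S48-4x and 5.76, 6.07 and 5.49 in S60-4x, and at least 2.03-fold less signal in PG-F9 than in 12P. NP7254706, with a RanBP2-type zinc finger, had 12.85, 12.84 and 12.42 in S48-4x, against 11.37, 9.76 and 10.65 in S60-4x, while the difference PG-F9 minus 12P was -2.17. Its call was lost in 4 of 16 alternative analyses, which changed the normalization, filter, model or arrays used.

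In the other crosswise class, S48-4x was low where PG-F9 was high. TC201426, a transcription factor of the bZIP family annotated as bZIP83, read 10.19, 10.38 and 10.47 in S48-4x and 12.93, 12.92 and 13.13 in S60-4x. The parents had 13.21, 13.50 and 13.23 in PG-F9 and 11.72, 11.23 and 11.39 in 12P, so that S60-4x was near the high parent and S48-4x was below both. The protein kinase TC193850 had 8.86, 8.83 and 8.34 in S48-4x, against 11.17, 10.98 and 11.09 in S60-4x. In this gene S48-4x stood at the level of 12P (8.834, 8.850 and 8.499) and S60-4x at that of PG-F9 (10.49, 11.60 and 10.71). The unnamed TC191363 was the gene with the second lowest difference among those outside the annotation, -4.96 ± 0.42 (SE, limma adjusted p = 0.00175). It read 6.86, 5.95 and 7.80 in S48-4x, apart from S60-4x (11.69, 11.98 and 11.82), S29-4x (11.18 to 11.55) and both parents (at least 9.02).

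**Figure D4:**
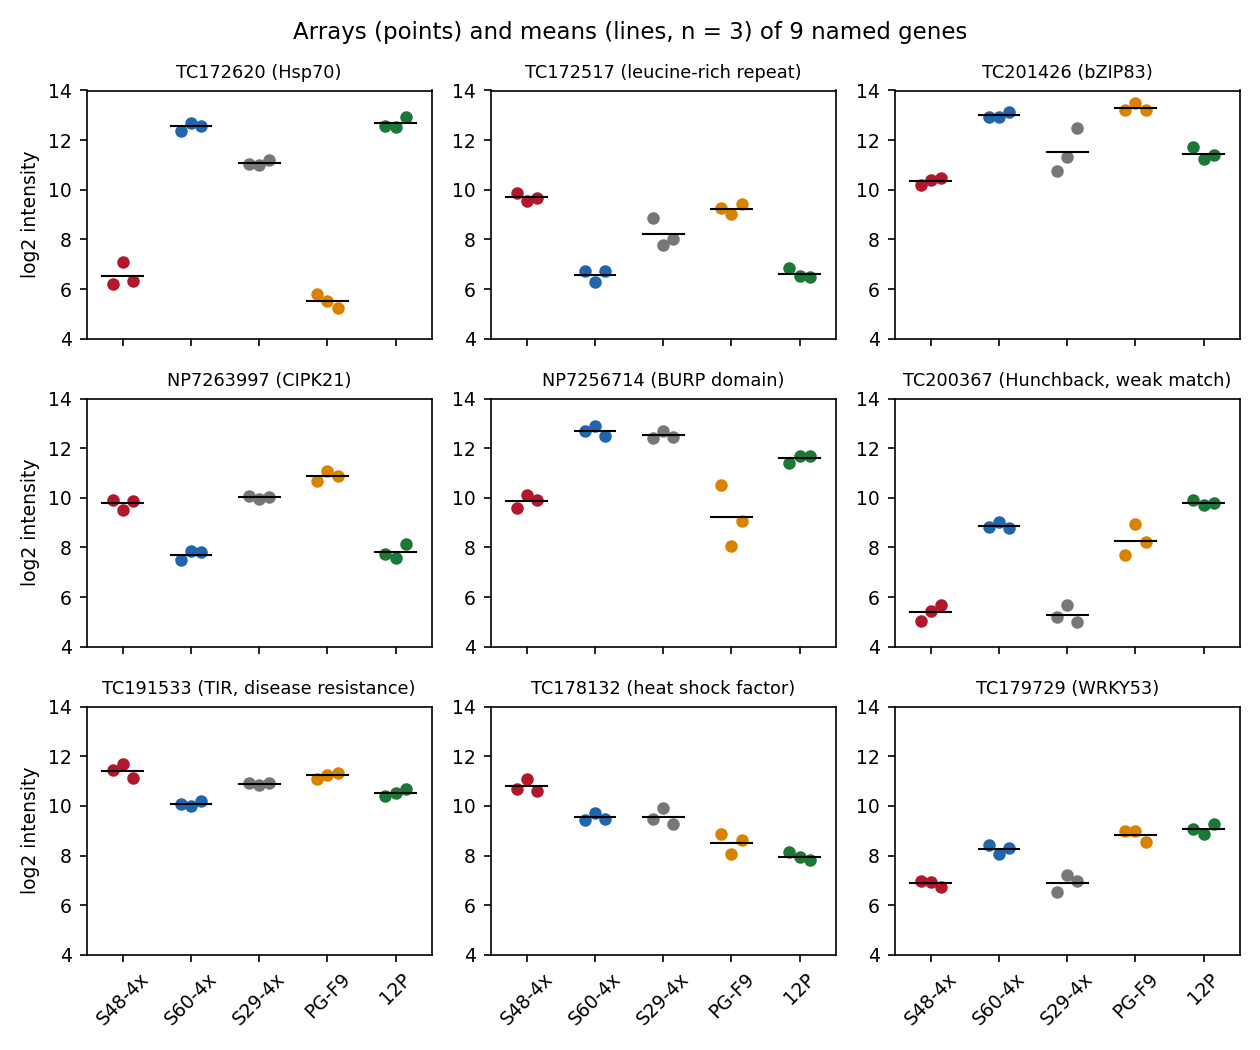
Log2 intensity (vertical axes) of 9 genes in S48-4x, S60-4x, S29-4x, PG-F9 and 12P, with 1 point per array and a line at the mean of 3. For Hsp70 (TC172620) S48-4x is near PG-F9 (6.22 to 7.09 against 5.24 to 5.79) and S60-4x near 12P, for bZIP83 (TC201426) S48-4x is below both parents, and for the heat shock factor (TC178132) it is above both.

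Of the genes called between the sibs, 551 were not called between the parents, 243 higher in S48-4x and 308 lower. For 245 of the 1344 the parents differed by less than 0.5. Some called genes lay outside the range of both parents. All 3 arrays of S48-4x were above all 6 parental arrays in 142 called genes (10.6%, against 6.18% of all genes) and below them in 300 (22.3%, against 7.87% of all genes). For S60-4x the numbers were 80 above (5.95%, against 6.24% of all genes) and 163 below (12.1%, against 7.51%). Called genes were selected for a large difference between the sibs, which by itself can put a sib outside the parental range more often. The excess over all genes can therefore not be read as a trait of the called genes. TC178132, a heat shock transcription factor, which turns on chaperone genes, had 10.69, 11.07 and 10.60 in S48-4x and 9.42, 9.70 and 9.49 in S60-4x, and no parental array was above 8.88. WRKY53 (TC179729), a regulator of leaf ageing in Arabidopsis, read 6.96, 6.92 and 6.75 in S48-4x and 8.44, 8.06 and 8.30 in S60-4x, with all parental arrays at 8.53 or more. TC200367, with a weak match to the insect zinc finger protein Hunchback, was below background in S48-4x (5.03, 5.44 and 5.70) and at 8.83, 9.02 and 8.77 in S60-4x, although PG-F9 (7.70 to 8.93) and 12P (9.70 to 9.90) both had signal. S29-4x lacked it as S48-4x did, with 5.19, 5.69 and 5.01.

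Annotations were available for 1019 genes, 517 of them with a named product. The study had chosen all 1019 because they differed between groups of these same arrays. The gene lists below are therefore no independent evidence of a direction. Among the 1019, 44 were higher and 65 lower in S48-4x, and 910 were not called. Of the 517 with a named product, 33 (6.38%) were higher and 40 (7.74%) lower in S48-4x. Seen as a whole, the annotated genes had a median difference of 0.0153, close to the 0.0126 of all genes.

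Disease resistance and leucine-rich repeat genes formed the list with the most called members in 1 direction only. These genes code largely for immune receptors, among them intracellular proteins with a TIR domain, which sense pathogens. In S48-4x, 8 of the 18 members rose, none fell among the called genes, and 10 were not called. For comparison, 1.09% of all genes, 44 of the 1019 annotated genes and 33 of the 517 with a named product rose. The list was drawn up from the gene annotations and does not hold TC183565, a disease resistance response protein by its best match, which fell in S48-4x with a difference of -1.31 (adjusted p = 0.0316, limma). The median difference of the list was 0.887, and 16 of 18 members were positive, as were 21521 of all 41527 genes and 530 of the 1019 annotated genes. On the arrays the median of the 18 genes was 8.405, 8.724 and 8.562 in S48-4x and 7.59, 7.34 and 7.19 in S60-4x, with 8.82 to 8.97 in PG-F9 and 7.63 to 8.32 in 12P. The arrays of S48-4x and S60-4x did not overlap in this median, and those of S29-4x lay between them (7.71 to 7.97). TC191533, with TIR and ATPase domains, read 11.44, 11.68 and 11.12 in S48-4x and no more than 10.18 in S60-4x. TC172864, with a TIR domain, had 8.81, 8.72 and 8.32 in S48-4x and 6.85, 6.94 and 6.74 in S60-4x. TC196652, also a TIR gene, was below background in S60-4x and at least 2.93-fold higher in S48-4x, and it lost its call in 4 alternatives, without replicate 1 of S48-4x or any single array of S60-4x.

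Parental values did not give 1 direction to these immune genes. Of the 8 that rose in S48-4x, TC172517 was higher in PG-F9, while TC172864 and TC195915 were higher in 12P, and 5 were not called between the parents. TC195915, for example, had 8.32, 8.77 and 8.67 in S48-4x and 7.10, 7.33 and 7.09 in S60-4x, although PG-F9 was below background (5.28 to 6.30) and 12P at 7.13 to 7.70. The lowest member, NP7255113, had a difference of -1.54 and was not called (adjusted p = 0.0894, limma). Several members have the same annotation, and whether their probes share targets was not tested. The number of members higher in S48-4x was 5 to 9 over the alternatives, with 5 without replicate 1 of S60-4x, and without replicate 2 of S48-4x 9 were higher and 2 lower.

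**Figure D5:**
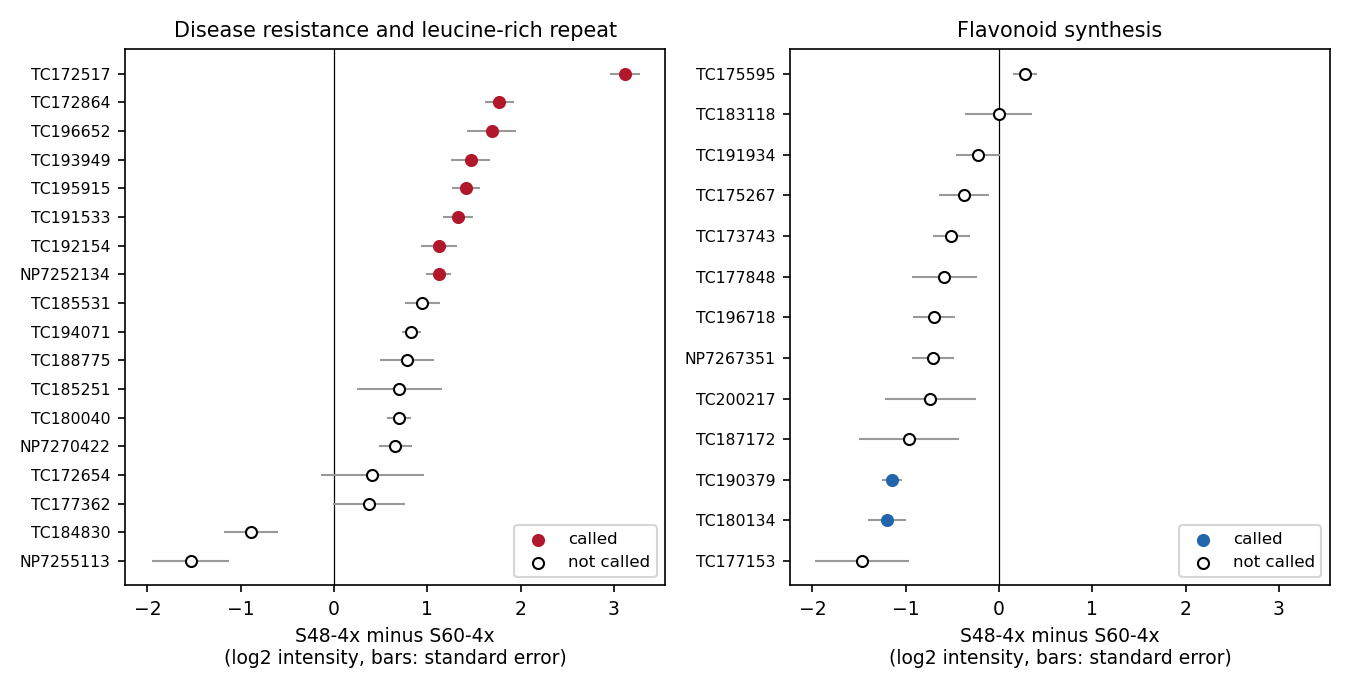
Difference S48-4x minus S60-4x (horizontal axes, log2 intensity, with the standard error) for each of the 18 disease resistance and leucine-rich repeat genes (left) and the 13 flavonoid synthesis genes (right). Filled points are called genes, 8 on the positive side on the left and 2 on the negative side on the right.

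Heat shock and chaperone genes went both ways. Of 11, 2 rose and 3 fell in S48-4x, and 6 were not called, where 3.24% of all genes and 10.7% of the annotated genes were called. Those that fell were the Hsp70 gene TC172620 and a pair of FKBP-type peptidylprolyl isomerases, enzymes that help proteins to fold. NP7254958 had 7.78, 7.17 and 7.15 in S48-4x and 8.42, 8.46 and 8.52 in S60-4x. TC190665 was below background in S48-4x and at least 1.17-fold lower there than in S60-4x. The calls of these enzymes were lost in 5 alternatives for NP7254958 and in 4 for TC190665. Another Hsp70 gene, NP7259797, moved in the other direction, with 10.59, 10.91 and 10.46 in S48-4x, against 9.54, 9.45 and 9.45 in S60-4x, and its parents were not called (10.47 to 11.21 in PG-F9, 10.42 to 10.57 in 12P). The heat shock protein TC182218 was higher in S48-4x by 1.81 ± 0.37 (SE, limma adjusted p = 0.0373) and lost its call in 7 of 16 alternatives. Over the alternatives the list had 1 to 4 members higher and 1 to 3 lower, with 4 higher and 3 lower without replicate 2 of S48-4x.

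Of 38 transcription factors, 2 rose in S48-4x, 7 fell and 29 were not called, with a list median of -0.2. For comparison, 3.24% of all genes and 10.7% of the annotated genes were called. Among all called genes 66.4% were lower in S48-4x, among the annotated ones 65 of 109, and among those with a named product 40 of 73. Whether the direction of these 9 calls departs from these shares was not tested. MYB factors, which control many plant metabolic and developmental genes, made up 3 of the 7. MYB145 (TC193744) read 6.42, 5.73 and 6.30 in S48-4x and 7.81, 7.92 and 7.81 in S60-4x. The MYB139 entries TC178990 and TC179150 had differences of -1.95 and -2.06, but their replicate 2 of S48-4x was far lower than the others (8.31 against 10.02 and 9.58 for TC178990) and each lost its call in 6 of 16 alternatives. One more MYB139 entry, TC180559, had a difference of -1.92 that was not called (adjusted p = 0.0941, limma). The MYB139 entries have the same annotation, and whether their probes share targets was not tested. The other members that fell were WRKY53, bZIP83, the homeodomain-related NP7267903 and HAT3 (TC180330), a homeobox-leucine zipper protein. NP7267903 was also lowest in replicate 2 of S48-4x (8.646 against 9.895 and 9.644), as the MYB139 entries were. Whether its probes share targets with theirs was not tested. The calls of NP7267903 and HAT3 were lost in 5 and 7 of 16 alternatives in that order. The heat shock factor TC178132 and an ERF gene, TC184632, of the ethylene response family, rose. The count of 7 fell to 3 without replicate 1 or replicate 2 of S60-4x and to 4 without its replicate 3, and was 3 with the replicate number as a block. Without replicate 2 of S48-4x, 5 members rose and 7 fell. For 17 of the 38 genes PG-F9 was higher than 12P and for 5 it was lower.

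Flavonoid synthesis genes, which make the defence compounds and pigments of legumes, were at or below 0 in 12 of 13 cases, with a median of -0.696. Below 0 were 20006 of all 41527 genes and 489 of the 1019 annotated genes. In S48-4x 2 of the 13 fell, where 2.15% of all genes, 65 of the 1019 annotated genes and 40 of the 517 with a named product fell. IOMT 8 (TC180134), an O-methyltransferase of isoflavones, had 8.05, 7.31 and 7.78 in S48-4x and 8.91, 9.08 and 8.75 in S60-4x. TC190379, similar to isoliquiritigenin 2'-O-methyltransferase, which methylates a chalcone, was below background in S48-4x and at least 1.07-fold lower there. The chalcone synthases and reductases, which act at the start of the pathway, ranged from -1.47 to 0.28 and none was called. The list had 1 to 3 called members over the alternatives, and 1 without replicate 2 of S48-4x or without any single array of S60-4x. Over the 13 genes, the median level of the arrays was 8.32, 7.99 and 9.05 in S48-4x and 9.17, 9.09 and 9.02 in S60-4x, so that replicate 3 of S48-4x fell within the range of S60-4x. PG-F9 (10.16 to 10.81) was above all of these.

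In the other groups the called members were few in number. Their counts stand beside 3.24% of all genes and 10.7% of the annotated genes called between the sibs. Both Kunitz protease inhibitors that were called rose in S48-4x, out of 7 protease inhibitors. TC183194 read 10.15, 9.33 and 10.08 in S48-4x, against 7.76, 7.86 and 7.60 in S60-4x, and TC176182 lost its call in 5 of 16 alternatives. Triterpene glucosyltransferase UGT73K1 (TC182421), an enzyme of saponin synthesis in M. truncatula, had 10.75, 10.64 and 11.04 in S48-4x and 9.26, 9.58 and 9.63 in S60-4x, and was the only one of 6 such transferases called. Both called cytochrome P450 genes of 16, TC184648 and TC188818, were lower in S48-4x, with differences of -1.64 and -1.31, and lost their calls in 3 and 6 alternatives in that order. Pectinesterases, which trim the methyl groups of cell wall pectin, were called in both directions. NP7270120 had 10.06, 9.47 and 10.23 in S48-4x and 8.96, 8.46 and 8.55 in S60-4x, while TC200088 had 11.20, 10.97 and 11.28 in S48-4x and 12.49, 12.23 and 12.49 in S60-4x. They were the only called members of 28 cell wall genes, and the call of NP7270120 was lost in 5 alternatives. A sulfate transporter (TC195749) was lower in S48-4x, at 6.76, 6.49 and 6.92 against 8.01, 8.05 and 8.28 in S60-4x, the only call among 16 transporters and channels.

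Among kinases, the S-receptor kinase-like TC194116 was higher in S48-4x, with 10.20, 10.32 and 10.26 against 8.73, 8.55 and 8.26 in S60-4x, and TC193850 was the other call of 14. Phi-1 (TC174952) was higher in S48-4x as well (8.52, 8.79 and 8.24, against 6.55, 6.90 and 7.15 in S60-4x). No call was made among 12 photosynthesis genes (median 0.325), 12 lipoxygenases (-0.111), 8 glutathione S-transferases (-0.243), 6 alternative oxidases (-0.0095) and 10 nodule-related genes (0.335). Of the 25 genes that the study listed for ploidy, 1 rose and 3 fell in S48-4x, where 3.24% of all genes and 10.7% of the annotated genes were called. The gene that rose was the heat shock protein TC182218. Those that fell were Hsp70 (TC172620), the thaumatin-like protein TC175139 of the pathogenesis-related class, and TC183565, a disease resistance response protein by its best match. TC183565 read 6.41, 6.01 and 6.75 in S48-4x and 8.15, 7.43 and 7.52 in S60-4x, and it lost its call in 7 of 16 alternatives. Thaumatin-like TC175139 read 6.514, 8.396 and 8.061 in S48-4x and 10.32, 9.97 and 9.39 in S60-4x, and it lost its call in 10 of 16 alternatives.

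Signal that was present in one sib and at background in the other followed the same imbalance. With 1 common bar for the 12 arrays, the mean of their highest negative controls (6.42), 156 called genes were below it in all arrays of S48-4x and above it in all of S60-4x (239 of all genes tested), and 71 the other way round (138 of all genes). Without replicate 2 of S48-4x these counts were 171 (351 of all genes) and 74 (233 of all genes). Of the 156, 50 were also below the bar in PG-F9 and above it in 12P, and 6 had the reverse parental pattern. Of the 71 genes above the bar in S48-4x and below it in S60-4x, 12 were present only in PG-F9 and 16 only in 12P. Over all 481 genes present in 12P and at background in PG-F9, 34.7% were at background in S48-4x and 21.8% in S60-4x. For the 374 genes present in PG-F9 and at background in 12P, 99 were at background in S48-4x and 115 in S60-4x. When each array was held to its own highest negative control, the counts were 163 and 38, and that control was higher in the arrays of S48-4x (6.29 to 6.63) than in those of S60-4x (5.97 to 6.28). In PG-F9 it was 6.72 to 7.005, above the common bar, and in 12P 6.22 to 6.35. Signal counted as present in PG-F9 at the common bar can thus lie below its own control. With separate controls, 1360 genes were present only in 12P, and 22.2% of them were at background in S48-4x and 5.96% in S60-4x. Present only in PG-F9 were 187 genes, with 41 at background in S48-4x and 29 in S60-4x.

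S29-4x, whose arrays entered none of these tests, was used to place the difference within the family. Its mean lay between those of S48-4x and S60-4x in 698 of the 1344 genes (51.9%, against 30.2% of all genes). These genes were chosen for a wide gap between the sibs, which by itself leaves more room for a mean in between. The higher share is therefore no result about S29-4x. It was nearer S48-4x in 401 (29.8%), whereas over all genes it was nearer S48-4x in 43.3%. For the genes that were lower in S48-4x, S29-4x sided with S48-4x in 16.6%, and for those that were higher in S48-4x it sided with S48-4x in 56.0%. For the genes lower in S48-4x, the mean of S29-4x was thus mostly nearer S60-4x, as with Hsp70 (TC172620). For bZIP83 (TC201426) the arrays of S29-4x were uneven (10.75, 11.32 and 12.50). Selecting genes for a gap between S48-4x and S60-4x can by itself shift which of them S29-4x lies nearer. A mean nearer S60-4x can also lie between the sibs, and whether S29-4x shared the low signal of S48-4x was not tested. By source of the probe, 5.11% of the 11072 genes with NP identifiers and 2.55% of the 30451 with TC identifiers were called between the sibs.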

How the data were processed

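The values deposited by the authors are linear intensities, 1 for each gene on each array, after quantile normalization and RMA summarization over probes. The 11 negative control entries were left out of the 41538, and the values of the other 41527 genes were transformed to log2. S48-4x was compared with S60-4x and PG-F9 with 12P, 3 arrays against 3, in unpaired fits with limma 3.58.1 (lmFit and eBayes without trend, R 4.3.3). Benjamini-Hochberg adjustment of the p-values covered the whole table. The script was tested on simulated data. Positions on the parental scale were compared with exact permutation tests over arrays (scipy 1.17.1).

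Named genes included the 10 genes with the largest differences in each direction among those with a named product. Also included were the 2 largest of the other genes in each direction and the called members of the gene lists. All were taken among called genes whose arrays did not overlap. Genes mentioned beyond these (TC180559, NP7255113) were chosen after their values were seen. Names come from the annotation of the study, because the reference of M. sativa genes used here does not hold the identifiers, and no sequences are therefore shown. The members and lists were chosen with earlier results of these data known. "Background" means below the highest negative control. For a fold of "at least", each value below the highest negative control of its array was raised to that control. The means of the sibs, or of the parents, were then compared. Precision is limited by the number of arrays. The alternatives are in the closing part, and columns of fold changes in the tables of the study were not used.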

Additional observations from a re-analysis of the deposited data

How the results depend on the processing

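The 5 main results kept their direction under the alternatives run. The number of genes called between S48-4x and S60-4x was 1344 and ranged from 1140 to 1470 with another normalization, filter, floor, variance model or fit of 12 or 24 arrays, with S48-4x higher in 33.1% to 35.2% of the calls. Without the threshold on the log2 difference it was 2497, with 9099 genes called between the parents (4597 with the threshold), 1410 in both comparisons and 935 of these of the same sign, since the rule then admits small differences. Leaving out 1 array gave 892 to 1570 calls between the sibs, 4049 to 4774 between the parents, 542 to 873 in both and 383 to 633 of the same sign. The difference in median position was 0.107 to 0.159 against 0.139, with p between 0.1 and 0.2, and could not reach 0.05 in this design (exact permutation test). With the replicate number as a block, 1002 genes were called between the sibs, 4628 between the parents, 642 in both and 478 with the same sign. The numbers share no source in the labels, and residuals of arrays with the same number correlated at -0.136, -0.131 and -0.317 in the sibs and at 0.0721, -0.175 and 0.134 in the parents. These values gave no sign of a pairing, but 3 arrays per genotype are too few to settle it. Of 48 named genes, 28 kept their call in every alternative that tested them and 20 lost it in at least 1 (762 values over 16 alternatives, since the filters left out some genes), none changed sign, and 18 were lost without replicate 3 of S60-4x and 14 with the block. The bars for background and the counts without replicate 2 of S48-4x were added after seeing the data. With 1 bar for all arrays, 156 or 201 called genes were at background in S48-4x alone (163 with separate bars) and 71 or 75 in S60-4x alone (38 with separate bars).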
